A study of Arabidopsis with 4 samples.

Results

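Transcript levels of 10 genes of flavonol and anthocyanin synthesis were examined in seedlings of the Arabidopsis mutant jmj28-2 (n = 2 libraries) and of its wild type Col-0 (n = 2 libraries). The genes were taken by their identifiers from the 32833 genes of the deposited RNA-seq table: the enzyme genes CHS (AT5G13930), CHI (AT3G55120), F3H (AT3G51240), F3'H (AT5G07990), FLS1 (AT5G08640), DFR (AT5G42800) and LDOX (AT4G22880), and the regulator genes MYB12 (AT2G47460), MYB111 (AT5G49330) and PAP1 (AT1G56650). The table itself lists CHI as CHI1, F3'H as CYP75B1, DFR as DFRA and PAP1 as MYB75. The mutant allele jmj28-2 takes its name from JMJ28, which encodes a KDM3-type histone demethylase with a JmjC domain, and the labels give its ecotype as Col-0, the standard laboratory accession. All plants were whole seedlings aged 12 days, grown at 23 °C on half-strength MS medium with 1% sucrose under 16 h of light and 8 h of dark. The labels do not say where in the gene the mutation lies, how many seedlings were pooled or whether the 2 libraries per genotype are from separate cultures, so the p-values below measure the spread between libraries, which may be technical.

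Flavonoids are phenylpropanoid pigments and sunscreens of plants. Chalcone synthase (CHS) joins a coumaroyl unit to malonyl units, chalcone isomerase (CHI) closes the ring, and flavanone 3-hydroxylase (F3H) and flavonoid 3'-hydroxylase (F3'H) make the dihydroflavonols from which the pathway forks. Flavonol synthase (FLS1) leads to the colourless flavonols, whereas dihydroflavonol reductase (DFR) and leucoanthocyanidin dioxygenase (LDOX) lead to the red and purple anthocyanins. In Arabidopsis, the R2R3-MYB factors MYB12 and MYB111 activate the early genes and FLS1, and PAP1, acting with bHLH partners and the WD40 protein TTG1, activates DFR, LDOX and later genes. Light and sucrose are known inducers of the pathway in seedlings.

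The libraries were alike in what they detected, with 19606 to 19751 genes at 1 TPM (a level corrected for transcript length and scaled to a fixed total per library) or more, and sequencing depth is unknown. JMJ28 itself had 5.45 and 5.72 TPM in jmj28-2, against 7.63 and 7.70 TPM in Col-0, below in both mutant libraries without passing the test over all genes (limma adjusted p = 0.235). The 7 green shoot markers and 14 root markers of the list used as a check were all detected in all 4 libraries, and 7 seed storage and oil body markers summed to 2.92 and 0.32 TPM in jmj28-2 and to 0.35 and 0.08 TPM in Col-0. Of the 7 seed markers, 0 and 5 were at 0 in the jmj28-2 libraries and 5 and 6 in the Col-0 libraries. The root markers stood apart in 1 library. Of the 14, 13 were lower on average in jmj28-2, as were 8434 of the 19764 genes tested. Both mutant libraries lay below both Col-0 libraries for 4 of 14, beside 17.6% of all genes tested. The root marker median lay at 0.0011 and -0.63 (log2, against the Col-0 mean) in jmj28-2 replicates 1 and 2, and at -0.016 and 0.016 in Col-0 replicates 1 and 2. The root markers summed to 2317 and 1837 TPM in jmj28-2 and to 2202 and 2155 TPM in Col-0. The green shoot markers had a lower median in both mutant libraries, with 6 of 7 lower on average. Both mutant libraries lay below both Col-0 libraries for 5 of 7, beside 17.6% of all genes tested. Of the 7, 0 were called, and 5 were lower at a limma unadjusted p under 0.05, beside 4.36% of all genes tested. The green shoot median lay at -0.20 in each jmj28-2 library, and at -0.0018 and 0.0018 in Col-0 replicates 1 and 2. The green shoot markers summed to 58024 and 62449 TPM in jmj28-2 and to 64520 and 63529 TPM in Col-0. Both marker sums rest mostly on the few most abundant markers. In whole seedlings, fewer cells of a type and less RNA of the marker genes per cell cannot be told apart.

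All 10 genes passed the filter of a mean of 1 TPM. None was called higher or lower in jmj28-2 (0 of 10 in either direction at a limma adjusted p under 0.05), beside 0.0405% called higher and 0.0354% called lower (0.0759% in all) of the 19764 genes tested, and 1 of the 10, PAP1, had an unadjusted p under 0.05, beside 13.9% of all genes tested. The 10 genes had a median log2 change of -0.015, jmj28-2 minus Col-0, and the median over all genes tested was 0.028. The members ranged from -0.59 for PAP1 to 0.21 for LDOX. Log2 changes are those of TPM + 1, which understates changes of low genes such as the MYB genes. Both jmj28-2 libraries lay above both Col-0 libraries for 1 gene, F3'H, where 29.0% of all genes tested did so, and below them for 1 gene, PAP1, where 17.6% did so. Non-overlap in either direction thus held for 2 of the 10 genes, beside 46.5% of all genes tested, and for the other 8 genes the genotypes overlapped.

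**Figure D1:**
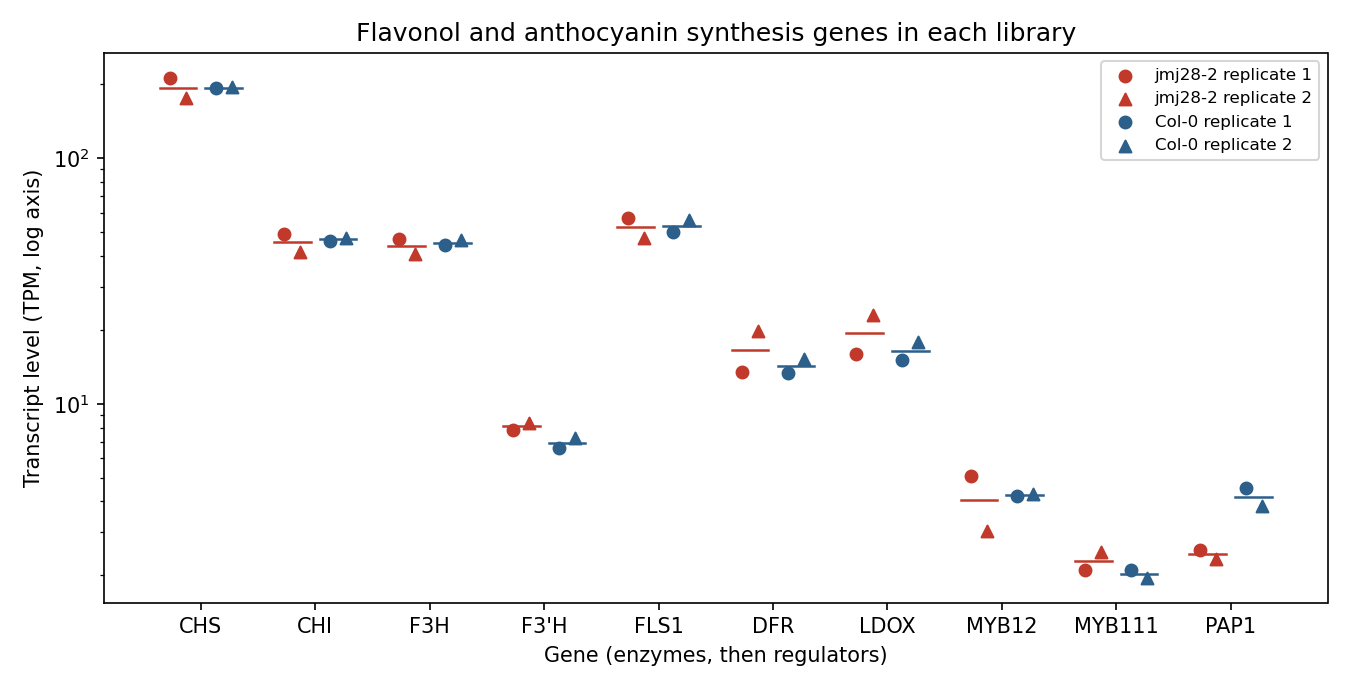
TPM of the 10 genes (log axis) in each library, with jmj28-2 in red left of Col-0 in blue, circles for replicate 1, triangles for replicate 2 and lines at the means of 2 libraries. CHS is the most abundant at 176 to 212 TPM, the regulators lie at 1.96 to 5.10 TPM, and PAP1 separates the genotypes with 2.53 and 2.34 TPM in jmj28-2 and 4.54 and 3.82 TPM in Col-0.

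PAP1, the MYB activator of anthocyanin genes, had the largest difference among the 10. It had 2.53 and 2.34 TPM in jmj28-2, against 4.54 and 3.82 TPM in Col-0. Both mutant libraries were low and lay close together, and the gap to the lower wild-type library was wider than the spread within either genotype. The means were 2.44 ± 0.134 TPM in jmj28-2 and 4.18 ± 0.509 TPM in Col-0 (SD, n = 2 each), or 0.583 times as much in jmj28-2. The log2 change was -0.59 (SE 0.145, 95% interval -0.96 to -0.22), and it did not pass over all genes (limma adjusted p = 0.235, range over its alternatives 0.194 to 0.712). The change ranged from -0.77 to -0.49 over the 12 alternatives that kept the gene. As the genotypes did not overlap, leaving out a library or changing the pseudocount could not turn its sign. The median of the 7 green shoot markers was also lower in both mutant libraries, at -0.20 in each, and the part of shoot content in the PAP1 difference was not tested.

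PAP1 has close relatives, and reads from near-identical copies are divided among them by estimation. The 3 related MYB genes that also activate anthocyanin synthesis were all under 1 TPM. PAP2 had 0.32 and 0.87 TPM in jmj28-2, against 0.47 and 0.49 TPM in Col-0. MYB113 was listed at 0.07 and 0 TPM in each genotype, and MYB114 at 0 and 0.13 TPM in jmj28-2, against 0.11 and 0.13 TPM in Col-0. PAP1 had the highest level of the subgroup in all 4 libraries.

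DFR and LDOX, anthocyanin enzyme genes that PAP1 is known to activate, had higher means in jmj28-2 and overlapped between the genotypes. Of the 13 tested genes that decorate flavonoids, 5 had a higher and 8 a lower mean. TT19, which carries anthocyanins to the vacuole, also had a lower mean (log2 change -0.28), with the genotypes overlapping. DFR, the first enzyme of the anthocyanin branch, had 13.48 and 19.74 TPM in jmj28-2, against 13.31 and 15.27 TPM in Col-0. LDOX, the next step, had 15.88 and 22.90 TPM in jmj28-2, against 15.07 and 17.82 TPM in Col-0. In both genes jmj28-2 replicate 2 was the highest of the 4 libraries, and jmj28-2 replicate 1 lay between the Col-0 libraries. DFR averaged 16.6 ± 4.43 TPM in jmj28-2 and 14.3 ± 1.39 TPM in Col-0, and LDOX 19.4 ± 4.96 TPM in jmj28-2 and 16.4 ± 1.95 TPM in Col-0 (SD, n = 2 each). Neither passed (limma adjusted p = 0.698 for DFR and 0.657 for LDOX). The 95% intervals of the change ran from 0.819 to 1.57 times the wild-type level for DFR and from 0.834 to 1.60 times for LDOX, on the scale of TPM + 1. Without jmj28-2 replicate 2 both changes turned slightly negative, at log2 values of -0.076 and -0.043.

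The ratio of PAP1 to these enzyme genes was lower in both mutant libraries. PAP1 stood at 0.159 and 0.102 of the LDOX level in jmj28-2, against 0.301 and 0.214 in Col-0. Relative to DFR it stood at 0.188 and 0.118 in jmj28-2, against 0.341 and 0.250 in Col-0. The genotypes did not overlap in either ratio, and both ratios contain PAP1, so they are not separate evidence. How often other gene pairs show no overlap was not computed. For pairs without PAP1, the ratios of CHI and F3'H to CHS did not overlap either. Those of F3H, FLS1, DFR, LDOX, MYB12 and MYB111 to CHS did overlap. With 2 libraries against 2 an exact permutation test cannot give a two-sided p under 0.33, and no test is attached.

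**Figure D2:**
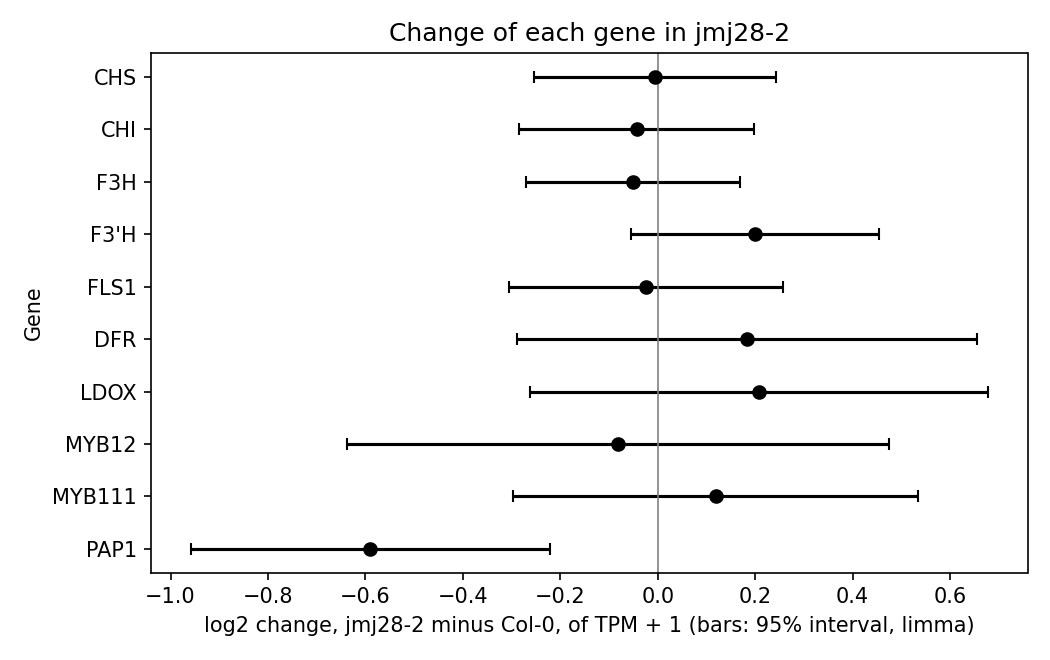
Log2 change of each of the 10 genes, jmj28-2 minus Col-0, on log2(TPM + 1), with bars for the 95% interval of the limma fit (n = 2 libraries each). The interval of PAP1, -0.96 to -0.22, is the one that leaves out 0, and the interval of MYB12, -0.64 to 0.48, is the widest.

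The early enzyme genes had nearly equal means in both genotypes. CHS, the entry enzyme, had 211.78 and 175.52 TPM in jmj28-2, against 191.96 and 195.32 TPM in Col-0. The mutant libraries lay on either side of the wild-type pair, and the means were 193.7 ± 25.6 TPM in jmj28-2 and 193.6 ± 2.38 TPM in Col-0 (SD, n = 2 each). The log2 change was -0.0062 (SE 0.0978, limma adjusted p = 0.985), with a 95% interval from 0.838 to 1.18 times the wild-type level.

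CHI, which closes the ring, had 49.24 and 41.51 TPM in jmj28-2, against 45.91 and 47.33 TPM in Col-0. F3H had 46.81 and 40.67 TPM in jmj28-2, against 44.21 and 46.25 TPM in Col-0. Both genes followed the order seen in CHS, with jmj28-2 replicate 1 the highest library and jmj28-2 replicate 2 the lowest. Their log2 changes were -0.043 for CHI and -0.050 for F3H, and neither passed (limma adjusted p = 0.875 and 0.836).

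F3'H, which adds the second hydroxyl group of the B ring and so sets the balance of quercetin and kaempferol types, was the exception among the early enzymes. It had 7.84 and 8.32 TPM in jmj28-2, against 6.59 and 7.23 TPM in Col-0. Both mutant libraries were above both wild-type libraries, with means of 8.08 ± 0.339 TPM in jmj28-2 and 6.91 ± 0.453 TPM in Col-0 (SD, n = 2 each). The log2 change of 0.20 (SE 0.0997) did not pass (limma adjusted p = 0.447), and it ranged from 0.14 to 0.26 over the 13 alternatives. Because the genotypes did not overlap, no pseudocount and no omission of a library could turn its sign.

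FLS1, the main flavonol synthase, had 57.10 and 47.37 TPM in jmj28-2, against 50.06 and 55.93 TPM in Col-0. The mutant libraries were again the highest and the lowest of the 4, and the log2 change was -0.024 (SE 0.111, limma adjusted p = 0.941). FLS1 was the second most abundant of the 10 genes by mean TPM in both genotypes. Its level was 4.24 and 2.40 times that of DFR in jmj28-2, against 3.76 and 3.66 times in Col-0. On the log2(TPM + 1) scale this ratio differed by -0.21, jmj28-2 minus Col-0, less than the pooled SD of 0.392 within genotypes. The planned exact permutation test cannot give a two-sided p under 0.33 with 2 libraries against 2, so it could not decide this difference. Without jmj28-2 replicate 2 the difference turned positive, at 0.18.

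MYB12, the main flavonol activator of the root, had 5.10 and 3.03 TPM in jmj28-2, against 4.20 and 4.29 TPM in Col-0. The mutant libraries were the highest and the lowest, with a wider spread than in the wild type, at 4.07 ± 1.46 TPM in jmj28-2 and 4.25 ± 0.0636 TPM in Col-0 (SD, n = 2 each). The log2 change was -0.081 (SE 0.219, limma adjusted p = 0.900). MYB111, the related activator that acts mostly in cotyledons, had 2.1 and 2.50 TPM in jmj28-2, against 2.11 and 1.96 TPM in Col-0, with a log2 change of 0.12 (SE 0.163, limma adjusted p = 0.786). The third member of this subgroup, MYB11, was under the filter at 0.67 and 0.21 TPM in jmj28-2, against 0.13 and 0.48 TPM in Col-0. MYB12 exceeded MYB111 in all 4 libraries, by 2.43 and 1.21 times in jmj28-2, against 1.99 and 2.19 times in Col-0.

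By mean TPM the 10 genes had the same order in both genotypes, with CHS first, then FLS1, CHI, F3H, LDOX, DFR and F3'H. The regulators came last. CHI and F3H were neighbours whose libraries overlapped, as did LDOX and DFR. MYB12, PAP1 and MYB111 followed in that order, and in Col-0 MYB12 (4.20 and 4.29 TPM) and PAP1 (4.54 and 3.82 TPM) overlapped. In jmj28-2, PAP1 (2.53 and 2.34 TPM) instead overlapped MYB111 (2.1 and 2.50 TPM).

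**Figure D3:**
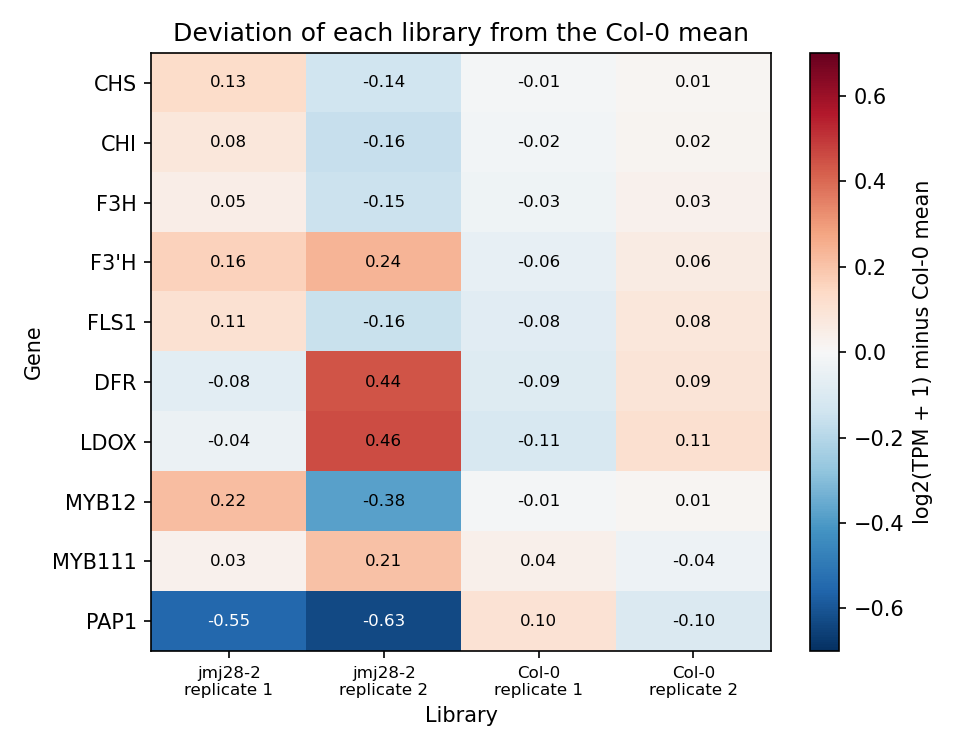
Deviation of each library from the Col-0 mean in log2(TPM + 1), with genes in rows and libraries in columns, jmj28-2 on the left. In jmj28-2 replicate 2 CHS, CHI, F3H, FLS1 and MYB12 lie at -0.14 to -0.38 and DFR and LDOX at 0.44 and 0.46, whereas PAP1 is at -0.55 and -0.63 in both mutant libraries.

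Much of the variation among the 10 genes lay between the jmj28-2 libraries rather than between the genotypes. Against the Col-0 mean, CHS, CHI, F3H, FLS1 and MYB12 were at 0.049 to 0.22 (log2) in jmj28-2 replicate 1 and at -0.14 to -0.38 in jmj28-2 replicate 2. DFR and LDOX were at -0.076 and -0.043 in replicate 1 and at 0.44 and 0.46 in replicate 2. In each mutant library these 5 genes and the 2 anthocyanin enzyme genes lay on opposite sides of the Col-0 mean. That library is also the one with low root markers, and the light-signalling factors HY5 and HYH, which activate CHS, differed between the mutant libraries as well. HY5 had 25.17 and 17.81 TPM in jmj28-2, against 20.38 and 25.10 TPM in Col-0, and HYH 53.01 and 35.50 TPM in jmj28-2, against 50.37 and 45.28 TPM in Col-0. The part of root content or of these factors in the pattern was not tested. Leaving out jmj28-2 replicate 2 turned the sign of 7 of the 10 changes, those of CHS, CHI, F3H, FLS1, DFR, LDOX and MYB12. The changes of F3'H, MYB111 and PAP1 kept their sign. Those of F3'H and PAP1 could not turn, because the genotypes did not overlap in these genes. The median of the 10 was 0.063 without jmj28-2 replicate 2 and -0.15 without jmj28-2 replicate 1.

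Within a library, the ratios of CHI, F3H and FLS1 to CHS and of DFR to LDOX varied less than the levels of these genes. CHI stood at 0.233 and 0.237 of the CHS level in jmj28-2, against 0.239 and 0.242 in Col-0, a coefficient of variation of 1.75% over the 4 libraries, beside 7.15% for the CHI level itself. F3H stood at 0.221 and 0.232 of CHS in jmj28-2, against 0.230 and 0.237 in Col-0. FLS1 stood at 0.270 and 0.270 of CHS in jmj28-2, against 0.261 and 0.286 in Col-0. DFR stood at 0.849 and 0.862 of LDOX in jmj28-2, against 0.883 and 0.857 in Col-0, a coefficient of variation of 1.70%, beside 19.4% for the DFR level. F3'H did not keep to CHS in this way, with a coefficient of variation of 14.8% for its ratio, larger than that of its level. DFR stood at 0.0636 and 0.113 of CHS in jmj28-2, against 0.0693 and 0.0782 in Col-0, a coefficient of variation of 27%.

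**Figure D4:**
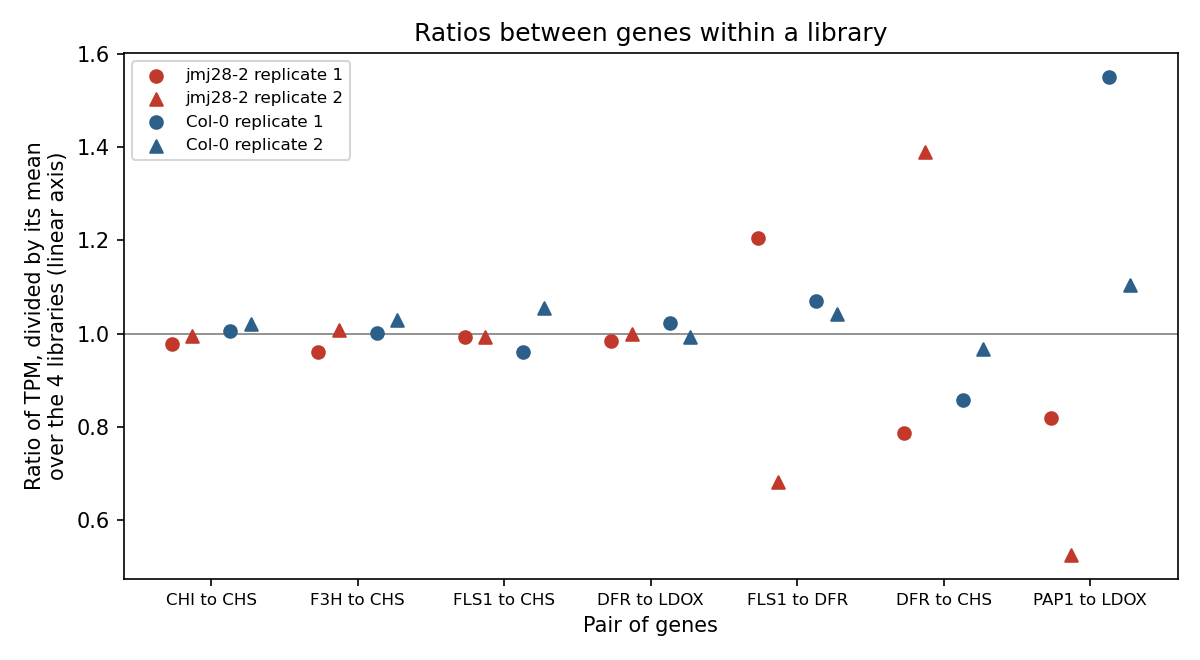
Ratios of TPM between pairs of genes in each library, divided by the mean ratio over the 4 libraries, with jmj28-2 in red left of Col-0 in blue. CHI, F3H and FLS1 relative to CHS and DFR relative to LDOX lie close to 1, whereas FLS1 to DFR spreads from 2.40 to 4.24 before scaling and PAP1 to LDOX is lower in both jmj28-2 libraries.

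Across the 4 libraries, the pattern of DFR was most like that of FAF3, ETFBETA (an electron transfer flavoprotein subunit gene) and LDOX, at Euclidean distances of 0.0195, 0.0273 and 0.0405 between the log2(TPM + 1) values of the genes, each centred on its own mean, among 15087 genes with a mean of 5 TPM or more. LDOX had FAF3 first (0.0320) and DFR second (0.0405). Among all genes tested, LDOX was the third closest gene to DFR and DFR the second closest to LDOX. CHI was the 66th closest to CHS, and F3H the 42nd closest to CHI. The genes closest to CHS were VPS60.1 (0.00767) and AT1G18270 (0.0121), and those closest to MYB12 were AT3G13240 (0.0250) and IAA28 (0.0253). PAP1 was most like SAUR21 (0.0430), a small auxin-induced gene with 8.12 and 7.61 TPM in jmj28-2, against 13.50 and 11.90 TPM in Col-0. With 4 libraries many genes resemble each other, and these distances describe these libraries only.

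The other genes of the pathway were read from a list of 51, of which 41 were tested. None was called in either direction (0 of 41 with limma, beside 0.0759% of all genes tested). A higher mean log2 level in jmj28-2 was seen for 15 and a lower one for 26, beside 11330 and 8434 of all 19764 genes tested. The median log2 change of the 41 was -0.061. At an unadjusted p under 0.05, 4 lay higher and 2 lower, beside 9.5% and 4.36% of all genes tested. Both jmj28-2 libraries lay above Col-0 for 9 genes and below for 9, beside 29.0% and 17.6%.

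Of the 9 known repressors of the pathway, 6 were higher on average in jmj28-2, as were 11330 of the 19764 genes tested. The median log2 change of the repressors was 0.16, beside 0.028 over all genes tested, and 0 passed. The Kelch-repeat F-box gene AT1G23390 (KFB-CHS), whose product targets CHS protein for degradation, had 190.37 and 183.97 TPM in jmj28-2, against 133.10 and 159.79 TPM in Col-0 (log2 change 0.36, SE 0.0968, limma adjusted p = 0.257). LBD37, LBD38 and LBD39, nitrogen-responsive repressors of anthocyanin regulators such as PAP1, all lay above Col-0 in both mutant libraries. Of the 9 repressors, 5 did so, beside 29.0% of all genes tested, 1 lay below Col-0 and 3 overlapped. The part of these repressors in the PAP1 level was not tested. LBD38 had 40.50 and 32.89 TPM in jmj28-2, against 26.35 and 29.27 TPM in Col-0 (limma adjusted p = 0.288). LBD39 had 48.46 and 39.67 TPM in jmj28-2, against 36.18 and 32.93 TPM in Col-0 (adjusted p = 0.308), and LBD37 had 78.33 and 73.25 TPM in jmj28-2, against 64.59 and 68.47 TPM in Col-0 (adjusted p = 0.330). These 4 genes are those with a limma unadjusted p under 0.05 among the higher ones of the 41 tested, beside 9.5% of all genes tested. MYBL2, an R3-MYB repressor of the anthocyanin complex, also lay above Col-0 in both libraries without passing, at 137.55 and 118.66 TPM in jmj28-2, against 113.21 and 114.77 TPM in Col-0. SPL9, which interferes with PAP1 complexes, went the other way, with 7.09 and 6.68 TPM in jmj28-2, against 8.08 and 8.98 TPM in Col-0 (log2 change -0.27, adjusted p = 0.341).

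Among the genes that feed the pathway from phenylalanine, PAL4 had the largest difference, at 9.18 and 7.94 TPM in jmj28-2, against 11.47 and 12.68 TPM in Col-0 (log2 change -0.45, SE 0.108, limma adjusted p = 0.235). The other 3 genes with the smallest p in this group went both ways. PAL3 had 18.50 and 22.93 TPM in jmj28-2, against 17.41 and 17.25 TPM in Col-0 (adjusted p = 0.434), 4CL2 had 21.57 and 18.04 TPM in jmj28-2, against 21.47 and 22.68 TPM in Col-0 (0.562), and C4H had 166.78 and 160.23 TPM in jmj28-2, against 155.88 and 158.55 TPM in Col-0 (0.682). PAL1, the most abundant phenylalanine ammonia-lyase gene, had 132.25 and 109.64 TPM in jmj28-2, against 125.83 and 123.77 TPM in Col-0. It stood at 0.624 and 0.625 of the CHS level in jmj28-2, against 0.656 and 0.634 in Col-0.

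All 4 further genes on the flavonol side had lower means in jmj28-2, and none passed. FLS5 had 54.26 and 54.03 TPM in jmj28-2, against 60.22 and 58.30 TPM in Col-0 (log2 change -0.13, limma adjusted p = 0.402). CHIL, a noncatalytic relative of CHI that promotes CHS activity, had 60.94 and 53.51 TPM in jmj28-2, against 59.72 and 69.95 TPM in Col-0 (adjusted p = 0.523). FLS2 had 2.04 and 1.36 TPM in jmj28-2, against 2.59 and 2.73 TPM in Col-0 (adjusted p = 0.386), and FLS3 had 12.08 and 9.69 TPM in jmj28-2, against 11.95 and 13.21 TPM in Col-0 (adjusted p = 0.542). FLS2, FLS3 and FLS5 form a cluster of related copies, so the split of reads among them is uncertain.

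Of the 13 tested genes that decorate flavonoids with sugars, acyl or methyl groups, 5 had a higher and 8 a lower mean in jmj28-2, with log2 changes from -0.22 to 0.16. SCPL10, which transfers sinapoyl groups to anthocyanins, had 15.38 and 14.64 TPM in jmj28-2, against 17.39 and 16.89 TPM in Col-0 (limma adjusted p = 0.379). UGT78D2, the glucosyltransferase at the 3 position of flavonols and anthocyanidins, had 31.25 and 29.08 TPM in jmj28-2, against 32.47 and 32.94 TPM in Col-0 (adjusted p = 0.524). OMT1, a methyltransferase, had 335.69 and 309.98 TPM in jmj28-2, against 306.88 and 283.61 TPM in Col-0 (adjusted p = 0.486). BGLU10, a glucosyltransferase of anthocyanins, had 28.16 and 28.15 TPM in jmj28-2, against 28.77 and 31.96 TPM in Col-0 (adjusted p = 0.597). TT19, the glutathione transferase that carries anthocyanins to the vacuole, had 8.78 and 11.24 TPM in jmj28-2, against 11.17 and 13.57 TPM in Col-0 (adjusted p = 0.474).

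**Figure D5:**
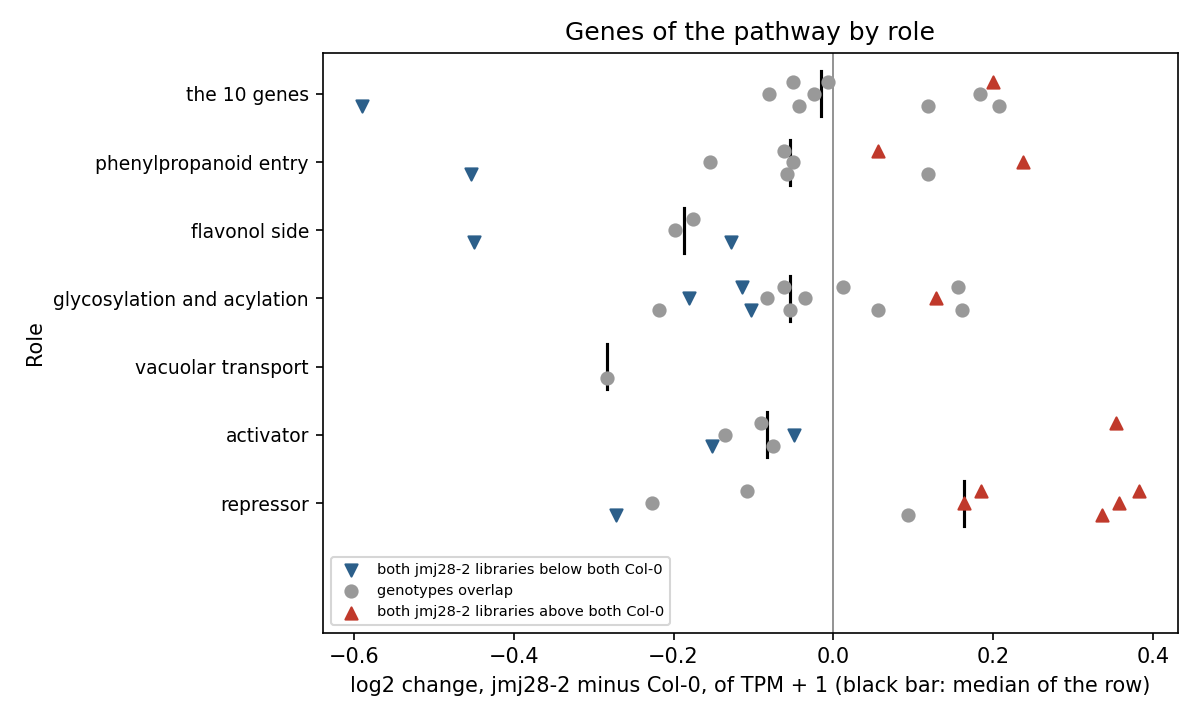
Log2 change, jmj28-2 minus Col-0, on log2(TPM + 1) of the 10 genes and of 41 other pathway genes by role, with triangles where both jmj28-2 libraries lie above or below both Col-0 libraries, circles where the genotypes overlap and a black bar at each row's median. The repressors have the highest median, at 0.16, and the 4 genes on the flavonol side lie between -0.45 and -0.13.

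The bHLH and WD40 partners of PAP1 were measured beside it. TT8, a bHLH factor needed for DFR expression, had 1.52 and 1.46 TPM in jmj28-2, against 0.68 and 1.26 TPM in Col-0 (log2 change 0.35, SE 0.233, limma adjusted p = 0.553). EGL3 had 3.39 and 3.87 TPM in jmj28-2, against 4.06 and 4.22 TPM in Col-0 (adjusted p = 0.639). TTG1, the WD40 scaffold, had 35.39 and 36.55 TPM in jmj28-2, against 36.96 and 37.56 TPM in Col-0 (adjusted p = 0.759). PAP1 and TT8 act in a shared complex, and neither passed. TT8 reached the filter of a mean of 1 TPM only through jmj28-2, with means of 1.49 TPM there and 0.97 TPM in Col-0. Its change is therefore not set against that of PAP1. The branch to proanthocyanidins, which is active in the seed coat, was nearly silent, with its 5 genes summing to 0.80 and 0.92 TPM in jmj28-2 and to 1.00 and 0.61 TPM in Col-0. TT12, its vacuolar transporter, was listed at 0 in all 4 libraries.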

How the data were processed

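RNA was sequenced from whole seedlings, 2 libraries of jmj28-2 and 2 of Col-0. The authors deposited 1 table of values per gene and library. It is labelled FPKM, but its columns sum to 998943 to 999014, which FPKM do not, and the deposited values were read as TPM; the planned test, the same for both units, was kept. TopHat, RSEM, edgeR and the build TAIR10 are named in the submitters' processing notes; for versions, annotation and strand, details were not given in the sources used here. Depth is lost in TPM, so no counting interval is given, and they share a fixed total.

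The 19764 genes with a mean of at least 1 TPM were tested as log2(TPM + 1) with limma 3.58.1 (R 4.3.3), genotype as the only term and trended empirical Bayes moderation (2 residual and 3.18 prior degrees of freedom). P-values were two-sided and adjusted by Benjamini-Hochberg over all genes tested, and genes were called under 0.05. On simulated data with 200 changed genes, the procedure recovered 59.2% of 2-fold and 89.5% of 4-fold changes. The changed genes were drawn from those above about 5 TPM. Smaller changes, and changes of genes as low as the MYB genes, were not simulated. Figures were drawn with matplotlib 3.10.9. Named were JMJ28, the 10 genes, up to 4 genes per role of the other pathway genes by smallest p, any at 0 in all libraries (TT12), and for likeness the 5 closest genes, of which the text gives the first few; PAP2, MYB113, MYB114, MYB11, HY5, MYBL2, SPL9, and PAL1, outside this rule, were picked with their values known. The members and lists were chosen with earlier results of these data known. Names not in the table come from the gene lists used here; 32548 of 32833 identifiers matched a RefSeq table on TAIR10.1, whose coordinates were not used.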

Additional observations from a re-analysis of the deposited data

How the results depend on the processing

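In all 13 alternatives, 0 of the 10 genes and 0 of the other pathway genes were called in either direction. The changes of the 10 genes were recomputed 127 times in all. The filter, trend, robust fitting and replicate block settings leave a log2 change as it was, so they could not turn a sign. Of the recomputed changes, 9 turned sign, each of them when a library was left out. CHS then ranged from -0.14 to 0.13, CHI from -0.16 to 0.077, F3H from -0.15 to 0.049, FLS1 from -0.16 to 0.11, DFR from -0.076 to 0.44, LDOX from -0.043 to 0.46 and MYB12 from -0.38 to 0.22 (log2). Their median, -0.015, ranged from -0.15 to 0.063 when a library was left out. The difference in the FLS1 to DFR ratio ranged from -0.60 to 0.18. Scaling by quantiles or median ratios turned no sign and moved the median of all genes to -0.0047 and -0.0030. MYB12, MYB111 and PAP1 fell under the stricter filter of 5 TPM on the mean.

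Over all genes, 8 were called higher and 7 lower. Robust fitting called 29 higher and 14 lower, and a pseudocount of 0.01 called 5 higher and 3 lower. Dropping the filter gave 4 higher, dropping the trend gave 3 higher, and the stricter filter of 5 TPM gave 4 lower. Leaving out a library gave 0 to 10 higher and 0 to 1 lower, with 0 in both directions without either Col-0 library (1738 and 1249 genes at an unadjusted p under 0.05 without replicate 1 and 2 of Col-0); the cause was not tested. Whether same-numbered libraries share a culture or batch is unknown. Their differences, replicate 1 minus replicate 2, correlated at 0.016 over genes between the genotypes, which cannot exclude a shared one. With the replicate block, 12 genes were called higher and 6 lower.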
